A study of Gasterosteus aculeatus with 60 samples.

Results

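The diencephalon and the telencephalon of 15 control males of the threespined stickleback (Gasterosteus aculeatus) were compared by RNA-seq, with both regions taken from every fish. The 30 libraries, 15 of each region, were chosen by their labels as the control libraries among the 60 of the series. The other 30 libraries, both regions of 15 challenged males, were left out of the comparison and are set beside it only at the end. All fish were adult males of a freshwater population from Putah Creek that held a territory in their own tank. Controls received a flask with nothing in it, and challenged males a flask that held a smaller male. Brains were collected at 30, 60 or 120 minutes from then, with 5 control fish per time. The heads were frozen before the regions were dissected.

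The telencephalon lies at the front of the brain. In fish it holds a pallium, whose neurons are mostly glutamatergic, and a subpallium, whose neurons are mostly GABAergic. The diencephalon behind it comprises the hypothalamus, the thalamus, the habenula and the pretectum, and its hypothalamus is joined to the pituitary. The territory of a neuron is set early by transcription factors with a homeobox, T-box or related DNA-binding domain, and many neurons of the adult brain keep expressing the factors of the territory in which they arose. A dissected piece is a bulk sample, in which fewer cells of a type and less RNA per cell cannot be told apart.

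Depth ranged over 19630417 to 42803458 counts in diencephalon libraries and over 18178450 to 49230351 counts in telencephalon libraries. The first principal component held 46.9% of the variance and separated the regions, and the telencephalon of fish 12 lay nearest to the diencephalon. Its score was 28.6, against a highest telencephalon score of 66.2 and a highest diencephalon score of -42.3. The first index of a library was shared by both regions of a fish, while each second index was used in 1 region only, so second index and region cannot be told apart. Within the 3 to 6 fish of each of the 4 pairs of second indexes, 1097 to 1331 genes marked diencephalon and 580 to 683 genes marked telencephalon by the rule given next, applied to those fish. Index and region coincide within each pair too, so these counts cannot separate them. The rule asks for the same side in all fish, which is easier to meet in fewer fish.

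Expression differed between the regions in most genes. Of 17507 genes tested with the fish as a block, 6455 (36.9%) were higher in diencephalon and 6633 (37.9%) were higher in telencephalon at an adjusted p under 0.1 (edgeR quasi-likelihood test, Benjamini-Hochberg). Most of these differences were small: 85.1% of the genes that passed differed less than 2-fold, and their median absolute log2 fold change was 0.31. A gene was therefore said to mark a region when it passed the test, differed at least 2-fold and lay on the same side in all 15 fish. By that rule 1117 genes (6.38%) marked diencephalon and 564 genes (3.22%) marked telencephalon. Diencephalon also held the larger differences, with 102 of its markers at 16-fold or more, against 22 of the telencephalon markers. Among the 1781 tested genes with a name, 41.2% were higher and 14.0% marked in diencephalon, and 33.6% were higher and 6.46% marked in telencephalon. These shares are the background for the lists of named genes that follow, which were chosen with earlier results of these data known. Factors in the study's regulatory network differed more often, with 56.8% of 324 tested higher in diencephalon and 37.3% in telencephalon. Of these network factors, 38.3% marked diencephalon and 15.4% telencephalon. The network was inferred from the study's own expression data, so these shares may not hold for transcription factors in general. They are the nearer background for the lists of transcription factors. All fold changes are log2 of diencephalon over telencephalon, with a standard error worked back from the test statistic. Where a region held few counts, that error can be smaller than the counting error and does not measure precision. Levels are counts scaled to library size (cpm), which are not corrected for gene length and so are compared only between libraries.

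Among the lists, the pallial transcription factors had the largest share of telencephalon markers. Of 11 members, 10 (90.9%) marked telencephalon, against 15.4% of the network factors. The median log2 fold change was -2.65, against -0.0041 over all genes tested. The T-box gene eomesa, a factor of developing glutamatergic neurons, had 2.5, 3.58 and 9.53 cpm (lowest, median and highest) in diencephalon, against 207, 265 and 365 cpm in telencephalon. The regions did not overlap, and the log2 fold change was -5.95 ± 0.16 (adjusted p = 1.7e-15 by edgeR). Its relative tbr1b, a factor of postmitotic pallial neurons, had 0.306, 5.43 and 14.0 cpm in diencephalon and 186, 237 and 288 cpm in telencephalon, a log2 fold change of -5.22 ± 0.26 (adjusted p = 4.8e-12 by edgeR). The lowest diencephalon value of tbr1b was that of fish 12. The homeobox gene emx3 followed at -5.89 ± 0.34, bhlhe22 at -3.11 ± 0.13, and fezf2, a zinc finger factor of forebrain neurons, at -2.87. The neuronal differentiation factors neurod2 copy 1, neurod2 copy 2 and neurod6b were at -1.35 to -1.68.

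The single pallial member that marked diencephalon was emx2. It had 19.1, 23.6 and 29.8 cpm in diencephalon, against 2.78, 3.75 and 5.85 cpm in telencephalon, and its log2 fold change was 2.65 ± 0.08 (adjusted p = 5.7e-15 by edgeR). Its relatives emx1 (-2.65) and emx3 marked telencephalon, so the 3 emx genes did not share a direction. In mammals emx2 patterns the cortex and is also expressed in the diencephalon of the embryo.

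**Figure D1:**
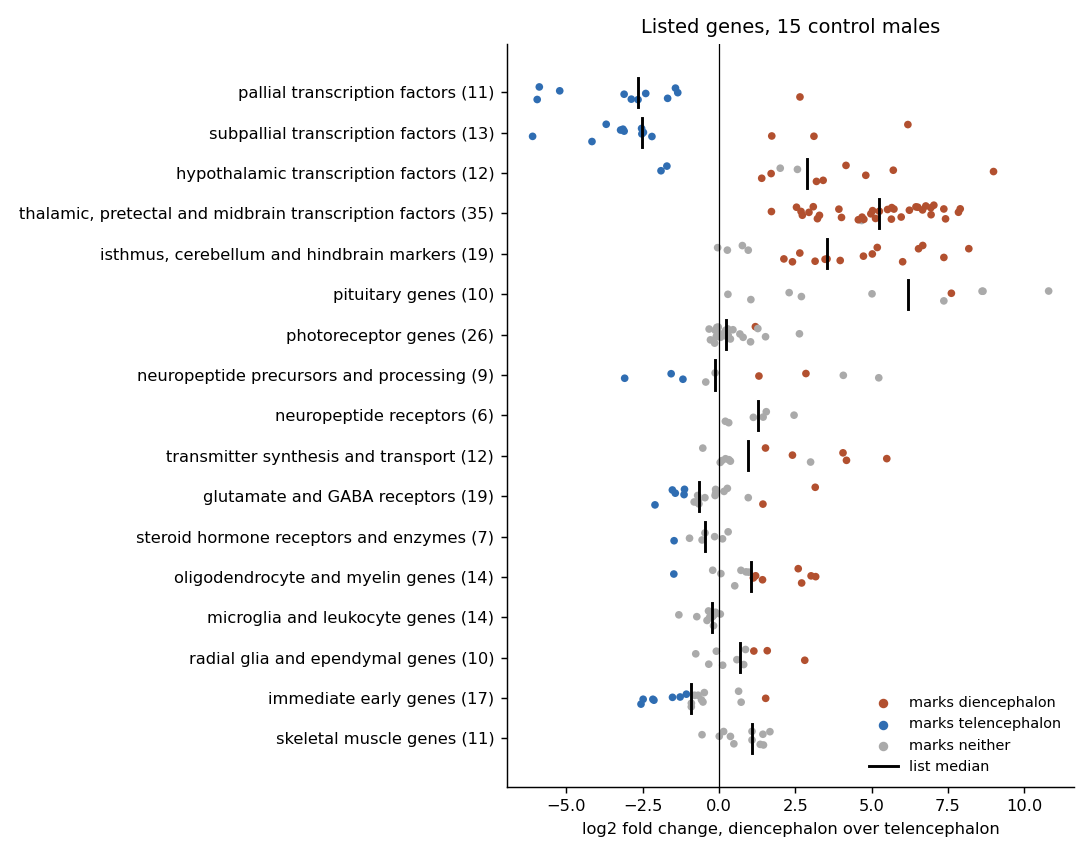
Region difference of each listed gene, as log2 fold change of diencephalon over telencephalon in 15 control males (x axis), by gene list (rows, number of members in brackets); points are genes, coloured by the region they mark, and the black bar is the list median. The pallial and subpallial lists lie left of 0 apart from 4 genes, and all 35 thalamic, pretectal and midbrain factors lie to the right.

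The subpallial transcription factors, which include the dlx genes that specify GABAergic neurons, divided 10 to 3. Telencephalon was marked by 76.9% of them, against 15.4% of the network factors, and diencephalon by 23.1%, against 38.3%. The zinc finger genes sp8a copy 1 (-6.11 ± 0.13), sp8a copy 2 (-4.16 ± 0.11) and sp9 (-3.69 ± 0.06) had the largest differences among the 10 members higher in telencephalon. The level of sp9 was 6.11, 9.18 and 11.6 cpm in diencephalon and 87.2, 113 and 141 cpm in telencephalon, a narrow spread in both (adjusted p = 1.3e-17 by edgeR). The factor lhx6, which marks interneurons of the medial ganglionic eminence in mammals, was at -3.22 ± 0.09, and the 4 listed dlx genes (dlx1a, dlx2a, dlx5a, dlx6a) were at -2.48 to -3.11. The related dlx3b was at -3.71 ± 0.19.

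Diencephalon was marked by gsx1, meis2b and foxp2 of the same list. The homeobox gene gsx1 had 5.5, 9.88 and 15.9 cpm in diencephalon, against 0, 0.136 and 0.519 cpm in telencephalon, with a log2 fold change of 6.18 ± 0.24. Its paralog gsx2 was at -2.20, so the pair lay on opposite sides. The forkhead gene foxp2 was at 1.73 ± 0.07 and meis2b at 3.11 ± 0.23. Besides dlx3b, which is in no list, the largest named telencephalon markers beyond the lists were the synaptic vesicle gene synpr (-5.22 ± 0.16), the p53 relative tp73 (-4.92 ± 0.23), the synaptotagmin syt5a (-4.14 ± 0.34), the small GTPase gem (-3.74 ± 0.09) and the homeobox gene gbx1 (-3.49 ± 0.22). For syt5a the regions overlapped, since the diencephalon of fish 35 held 22.4 cpm and the telencephalon of fish 32 held 7.32 cpm.

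The factors of the thalamus, pretectum and midbrain were the most uniform of the lists, whose members were chosen with earlier results of these data known. All 35 were higher in diencephalon and 34 (97.1%) marked it, against 56.8% and 38.3% of the network factors. The median log2 fold change was 5.25, from 1.72 (lmx1bb, a LIM homeobox gene) to 7.90 (barhl1b). The homeobox gene barhl1b had 26.1, 29.4 and 41.3 cpm in diencephalon, against 0, 0.0679 and 0.711 cpm in telencephalon. The paired box gene pax7b, a factor of the dorsal midbrain, had 33.3, 41.7 and 57.0 cpm in diencephalon and 0.034, 0.11 and 0.934 cpm in telencephalon (log2 fold change 7.84 ± 0.23). For both genes the telencephalon libraries together held few counts, 59 for barhl1b and 85 for pax7b, and fish 12 contributed 35 and 46 of them. Without fish 12, barhl1b was at 8.89 and pax7b at 8.65. Others of similar size were DMBX1 (2 of 2) at 7.42 ± 0.27 (8.13 without fish 12), pax7a at 7.36 ± 0.23, foxa2 copy 1 at 7.04 ± 0.24 and shox2 at 6.94 ± 0.27 (7.74 without fish 12). The 7 Iroquois genes of the list (irx1a, irx1b, irx2a, irx3a, irx5a, irx5b, irx6a) all marked diencephalon, at 3.93 to 6.23.

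The hypothalamic factors were less uniform. Of 12 members, 10 (83.3%) were higher in diencephalon and 8 (66.7%) marked it, against 56.8% and 38.3% of the network factors. The median log2 fold change was 2.88. The homeobox gene nkx2.4a had the largest difference of any marker with all fish, with 7.43, 14.9 and 21.7 cpm in diencephalon, against 0, 0 and 0.13 cpm in telencephalon. Its 15 telencephalon libraries held 11 counts in all, and the log2 fold change was 8.99 ± 0.20 (adjusted p = 1.9e-16 by edgeR). That error is too small for so few counts. Without fish 12 the log2 fold change was 8.86, no larger than the 8.89 of barhl1b. FOXB1 (5.71 ± 0.35, and 6.50 without fish 12) and foxb1b (4.16 ± 0.19), forkhead genes of the mammillary hypothalamus, and rx3 (4.81 ± 0.44, and 5.53 without fish 35), a retinal and hypothalamic homeobox gene, followed. The other direction was taken by nkx2.1, with 3.0, 6.15 and 8.6 cpm in diencephalon and 15.6, 19.2 and 28.1 cpm in telencephalon (-1.71 ± 0.11), and by prdm12b (-1.90 ± 0.08). In mammals nkx2.1 acts in the hypothalamus and also in the ventral subpallium.

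**Figure D2:**
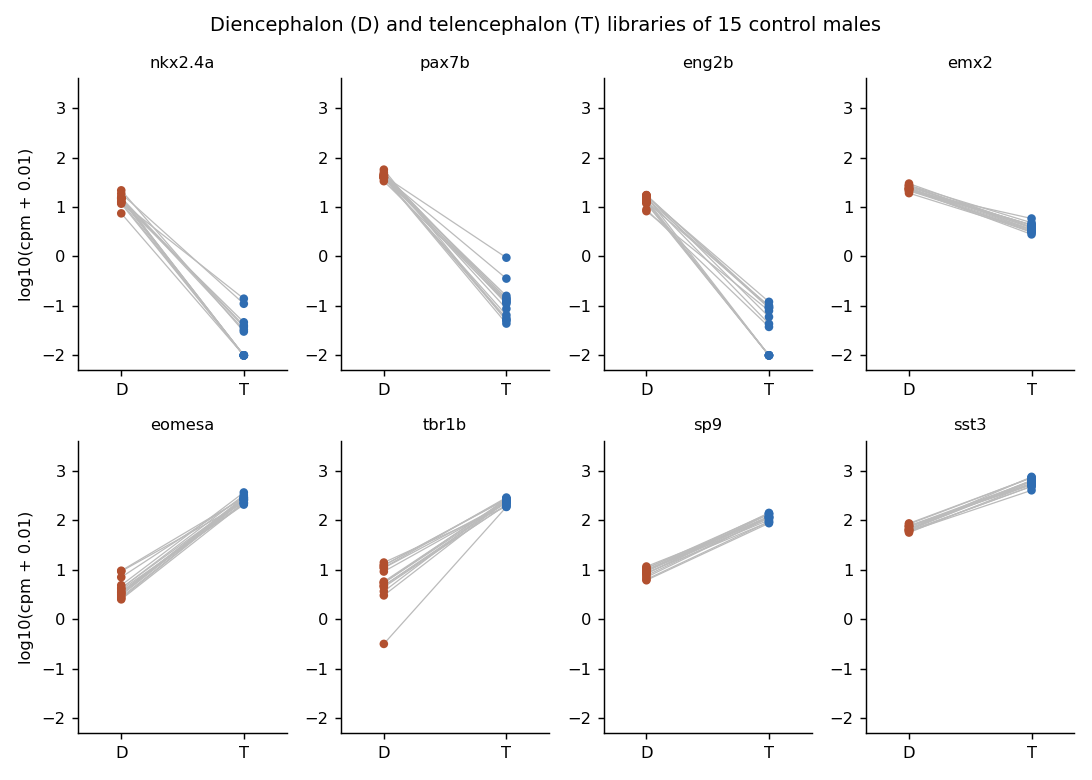
Levels of 8 region markers in the diencephalon (D, left) and telencephalon (T, right) of each of 15 control males, as log10 of cpm plus 0.01; a line joins the 2 libraries of a fish. No line crosses to the other side: nkx2.4a, pax7b, eng2b and emx2 are higher in diencephalon and eomesa, tbr1b, sp9 and sst3 in telencephalon in all 15 fish.

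Genes of the isthmus, cerebellum and hindbrain, which lie behind the diencephalon, were also detected in the diencephalon libraries. Of 19 members, 18 (94.7%) were higher in diencephalon and 15 (78.9%) marked it, against 41.2% and 14.0% of named genes. Many members are transcription factors, for which the network factors, at 56.8% and 38.3%, are the nearer background. The median log2 fold change was 3.54. The engrailed gene eng2b, a factor of the midbrain and hindbrain boundary, had 8.23, 14.0 and 17.4 cpm in diencephalon and 0, 0.0335 and 0.111 cpm in telencephalon (8.18 ± 0.20). TLX2 was at 7.36 ± 0.22, eng1b at 6.67 ± 0.30 and EN1 (2 of 2) at 6.53 ± 0.22. PCP2, a Purkinje cell gene of the mammalian cerebellum, was at -0.05 ± 0.08 (adjusted p = 0.64 by edgeR).

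The summed level of this list varied several-fold between fish in diencephalon. It was 241.7 cpm at the lowest, 378.6 cpm at the median and 1007 cpm at the highest, against 109 to 144.4 cpm in telencephalon, and fish 3 (1007 cpm) and fish 33 (795 cpm) held most. The genes aldoca (7.26 ± 0.17), an aldolase of Purkinje cells, and CASQ2 (2 of 2) (7.57 ± 0.16), a calcium-binding calsequestrin, were among the 12 largest named diencephalon markers, and both peaked in the same fish. The level of aldoca was 17.0, 37.2 and 345 cpm in diencephalon, with 345 and 335 cpm in fish 3 and 33, against 0.243, 0.309 and 1.32 cpm in telencephalon. Without these 2 fish, aldoca was at 6.74 and CASQ2 (2 of 2) at 7.38, and both still marked diencephalon. The fish were singled out for high levels, so the lower values follow from the choice. Genes this large and on the same side in all fish had little room to lose the mark.

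Pituitary genes were higher in diencephalon, but through few fish. All 10 passed the test, against 41.2% of named genes that were higher in diencephalon. Only pomca, the precursor of ACTH and melanocortins, marked the region (10%, against 14.0% of named genes). The median log2 fold change of 6.19 was 1.79 by DESeq2 and was 2.64 in challenged males. Without fish 10, 12 and 32, tshb, smtla, pou1f1 and nr5a1b no longer reached the filter on low counts, so the count and the median rest on those fish. The glycoprotein hormone subunit gene cga had 0, 0.228 and 2283 cpm in diencephalon, against 0, 0.0259 and 0.991 cpm in telencephalon. Fish 12 (2283 cpm) and fish 32 (289 cpm) stood far above the next fish (11.0 cpm), and cga was higher in diencephalon in 12 of 15 fish. The prolactin gene prl had 0, 0.467 and 1165 cpm in diencephalon and 0, 0.0835 and 1.69 cpm in telencephalon, with 1165 cpm in fish 12 and 510 cpm in fish 32. The median and the highest diencephalon value of pomca were 3.15 and 1775 cpm, against 0.194 and 0.534 cpm in telencephalon.

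Fish 10, 12 and 32 held the highest sums of the pituitary list in diencephalon, so lower values without them follow from the choice. Without fish 10, 12 and 32, the log2 fold change of cga was 3.76, against 10.79 ± 1.14 with them, and that of prl was 3.98, against 8.61 ± 0.89. That of pomca was 3.98, against 7.61 ± 0.88 with them, and pomca still marked diencephalon. Without fish 17 it was 8.46. Without fish 3, cga was at 13.18 and prl at 10.20. Without fish 10, 12 and 32, the gonadotropin subunit gene lhb no longer passed (0.08, adjusted p = 0.92 by edgeR), against 2.30 with all fish.

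**Figure D3:**
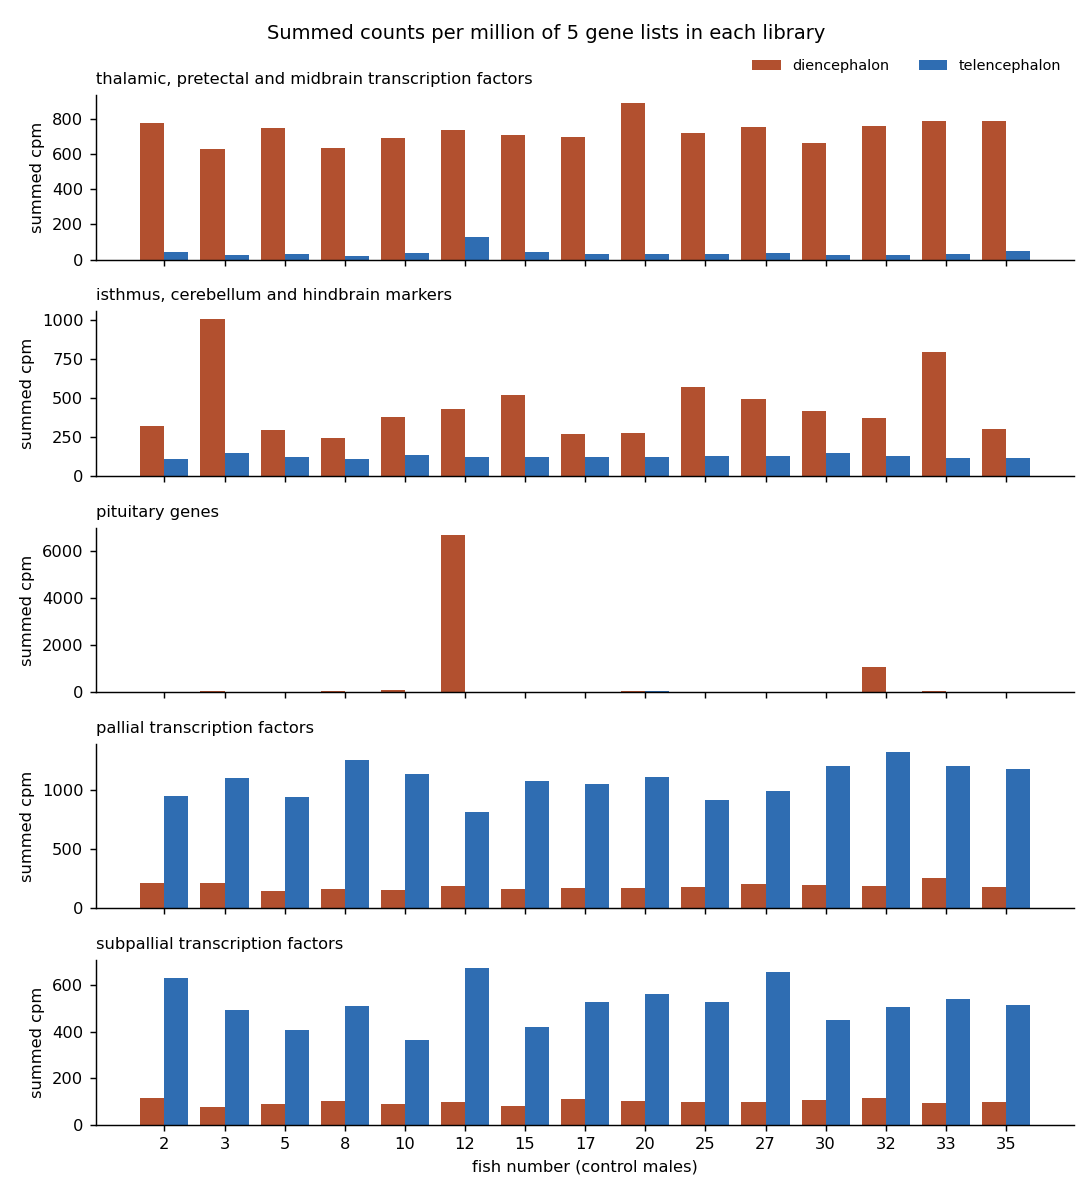
Summed cpm (y axis, from 0) of 5 gene lists in the diencephalon (left bar) and telencephalon (right bar) of each control male (x axis, fish number). The thalamic list reached 127.8 cpm in the telencephalon of fish 12, pituitary genes reached 6683 and 1061 cpm in the diencephalon of fish 12 and 32, and the isthmus and cerebellum list was highest in the diencephalon of fish 3 and 33.

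The telencephalon of fish 12 carried genes of the diencephalon. The summed thalamic, pretectal and midbrain list was 127.8 cpm there, against a median of 32.4 cpm over the 15 telencephalon libraries and 627.1 to 891.8 cpm in diencephalon, and 29 of its 35 members had their highest telencephalon level in that library. The homeobox gene pou4f1, a habenular and tectal factor, was the only member that did not mark diencephalon. Its level was 6.64 cpm in the telencephalon of fish 12 and at most 0.8 cpm in the other telencephalon libraries, against a diencephalon median of 6.69 cpm. Without fish 12 it marked the region, and so did otpa and sim1b, factors of neuroendocrine hypothalamic neurons. Fish 12 was singled out for such levels, so markers gained without it, here and below, follow from the choice. Why the telencephalon library of fish 12 held such counts was not tested.

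Neuropeptide genes divided between the regions. The somatostatin gene sst3 on linkage group XII had 56.4, 65.1 and 86.3 cpm in diencephalon, against 403, 608 and 755 cpm in telencephalon, a log2 fold change of -3.09 ± 0.06 (adjusted p = 2.1e-17 by edgeR). The nociceptin precursor pnoca (-1.57 ± 0.08) and the tachykinin precursor tac1 (-1.18 ± 0.06) also marked telencephalon. Diencephalon was marked by chgb, a chromogranin of secretory granules, with 54.3, 68.3 and 106 cpm in diencephalon and 1.55, 10.0 and 32.2 cpm in telencephalon (2.85 ± 0.27). The CRH-binding protein gene crhbp (1 of 2) was at 1.31 ± 0.17, and its highest diencephalon level, 87.5 cpm, was again that of fish 12.

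The nonapeptide genes avp and oxt are expressed in neurons of the preoptic area, which lies at the border of the regions. They lie near each other on linkage group XIII, oxt at 5131577 to 5133164 and avp at 5162715 to 5164290 in the Ensembl release 75 annotation. The level of avp was 49.8, 194 and 290 cpm in diencephalon and 1.9, 6.57 and 417 cpm in telencephalon (4.07 ± 0.62, adjusted p = 1.3e-05 by edgeR). The level of oxt was 83.4, 257 and 337 cpm in diencephalon and 0.204, 1.55 and 532 cpm in telencephalon (5.23 ± 0.92, adjusted p = 6e-05 by edgeR). Each was higher in diencephalon in 14 of 15 fish, and fish 12 was the exception in both, with the lowest diencephalon and the highest telencephalon value. The telencephalon of fish 5, 15 and 10 was next highest in both genes, with 59.0, 69.9 and 44.3 cpm of avp. Without fish 12 both marked diencephalon, at 4.35 for avp and 5.57 for oxt, and without all 4 fish they were at 5.15 and 6.93. The fish were left out for these same levels, so both changes follow from the choice.

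Of the 6 neuropeptide receptors, 5 (83.3%) were higher in diencephalon, against 41.2% of named genes, and none marked it. The bombesin receptor grpr (1 of 2) was at 2.46 ± 0.39 and the tachykinin receptor TACR3 (1 of 2) at 1.55 ± 0.38, and both marked diencephalon without fish 12. GPR151, an orphan receptor of the habenula, was at 1.44 ± 0.47, with 32.4 cpm in the telencephalon of fish 12.

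**Figure D4:**
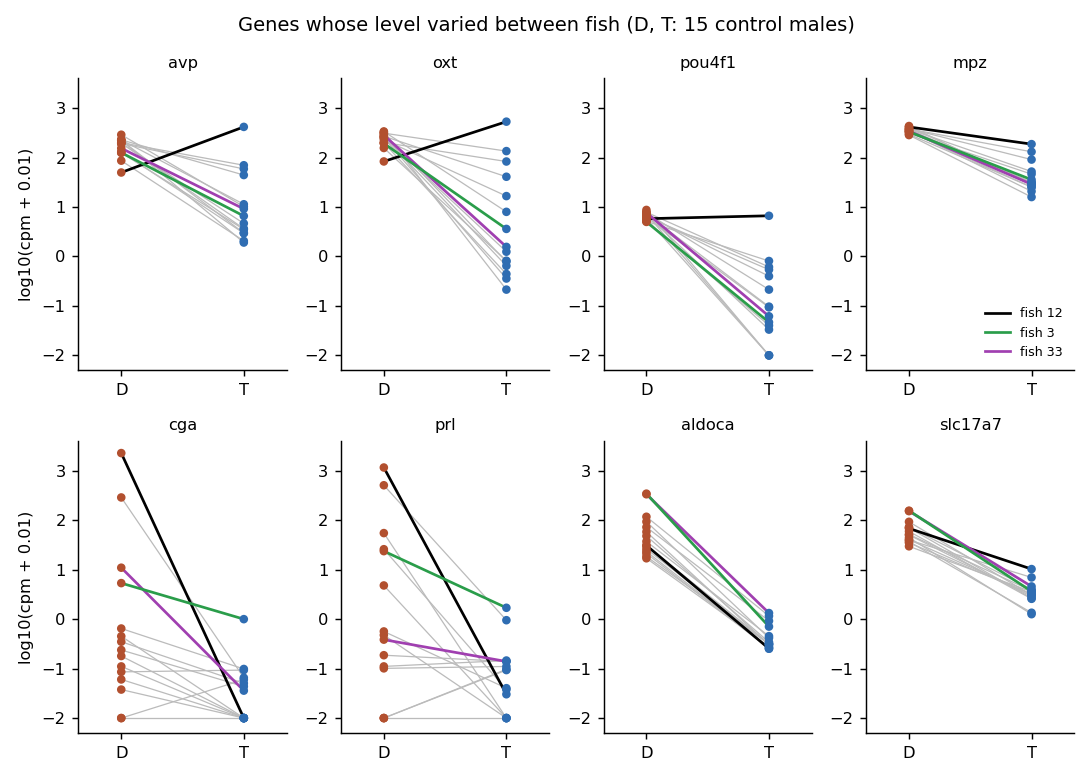
Levels of 8 genes that varied between fish, in the diencephalon (D, left) and telencephalon (T, right) of 15 control males, as log10 of cpm plus 0.01; fish 12, 3 and 33 have heavy lines. The lines of avp and oxt run from diencephalon down to telencephalon in 14 fish and up in fish 12, and cga and prl reach 2283 and 1165 cpm in the diencephalon of fish 12.

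Of the cholinergic genes, SLC5A7 (2 of 2) and CHAT (1 of 2) marked diencephalon. The choline transporter SLC5A7 (2 of 2) had 13.5, 16.1 and 18.5 cpm in diencephalon, against 0, 0.242 and 5.42 cpm in telencephalon (5.49 ± 0.40, and 6.12 without fish 12), and choline acetyltransferase, CHAT (1 of 2), was at 4.17 ± 0.29. The second copy, SLC5A7 (1 of 2), was at 0.32, and the difference between the copies was not tested. The acetylcholinesterase gene ache was at 0.09 ± 0.06 and did not pass (adjusted p = 0.17 by edgeR). The vesicular acetylcholine transporter SLC18A3 (1 of 2) was at 3.00 ± 0.33 and marked diencephalon only without fish 12, whose telencephalon held 22.5 cpm. The vesicular glutamate transporter slc17a7 was at 4.06 ± 0.23, with 29.7, 51.6 and 156 cpm in diencephalon and 1.25, 3.18 and 10.3 cpm in telencephalon. Its 2 highest diencephalon levels were in fish 3 and 33, where the summed isthmus, cerebellum and hindbrain list was highest. Without these fish slc17a7 was at 3.84, and a lower value follows from the choice of fish.

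The GABA genes had small differences of both signs. The vesicular GABA transporter slc32a1 was at -0.53 ± 0.04, lower in diencephalon in 15 of 15 fish, while the GABA-synthesizing enzymes gad1b (0.21) and gad2 (0.37) were higher. The tryptophan hydroxylase gene tph1a (1.52) marked diencephalon, and so did the glycine transporter slc6a5, with 0.949, 1.64 and 10.6 cpm in diencephalon and 0.257, 0.405 and 0.699 cpm in telencephalon.

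Receptors for glutamate and GABA were mostly higher in telencephalon, with 14 of 19 members (73.7%, median -0.66), against 33.6% of named genes. The GABA-A subunit gabra5 had 18.7, 32.2 and 50.4 cpm in diencephalon and 67.6, 127 and 187 cpm in telencephalon (-2.10 ± 0.12). The rho-type subunit gabrr3b (-1.53 ± 0.16), the NMDA subunit GRIN2B (1 of 2) (-1.43 ± 0.08) and the metabotropic receptor GRM5 (1 of 2) (-1.14 ± 0.08) also marked telencephalon. The NMDA subunit grin2ca marked diencephalon (3.15 ± 0.17), and its highest levels were in the diencephalon of fish 3 and 33.

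Of 7 genes of steroid signalling, 4 (57.1%) were higher in telencephalon, against 33.6% of named genes. The androgen receptor ar copy 2 marked it, with 5.6, 7.53 and 9.87 cpm in diencephalon and 14.4, 21.2 and 25.9 cpm in telencephalon (-1.47 ± 0.08), and ar copy 1 was at -0.97. The mineralocorticoid receptor nr3c2 was at -0.55 and the glucocorticoid receptor NR3C1 at -0.46. The exception was hsd17b7, an enzyme of sterol and estradiol synthesis, at 0.30 ± 0.07, and without the fish block it did not pass (adjusted p = 0.17 by edgeR).

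Myelin genes were higher in diencephalon in 11 of 14 members (78.6%), and 7 (50%) marked it, against 41.2% and 14.0% of named genes. The myelin protein gene mpz, a major myelin component in the fish brain, had 285, 351 and 434 cpm in diencephalon, against 15.9, 30.6 and 187 cpm in telencephalon (3.17 ± 0.23). The oligodendrocyte factors nkx6.2 (3.02 ± 0.22) and myrf (2.71 ± 0.20) and the galactolipid enzyme UGT8 (2.59 ± 0.16) followed, while gpr37b, a receptor of glia, marked telencephalon at -1.48 ± 0.07. The telencephalon of fish 12 (187 cpm), fish 15 (131 cpm) and fish 5 (91.0 cpm) held most mpz in that region.

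Among genes of radial glia and ependyma, 6 of 10 (60%) were higher in diencephalon, against 41.2% of named genes. The glutamate transporter slc1a3b (2.81 ± 0.25), foxj1b (1.58 ± 0.13), a factor of motile cilia, and sox9a (1.14 ± 0.06) marked diencephalon. The highest diencephalon levels of slc1a3b were again in fish 3 and 33. The glutamine synthetase glulc was at -0.76 ± 0.35, and it no longer passed when fish 5, 12, 17 or 35 was left out. Microglial and leukocyte genes differed little, with none that marked a region and a median of -0.24. Of 14 members, 8 (57.1%) were higher in telencephalon, against 33.6% of named genes. Fish 8 had 3440 cpm of these genes in diencephalon and 1757 cpm in telencephalon, against medians of 301.7 and 365.9 cpm.

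Immediate early genes, which neurons induce within minutes of activity, were mostly higher in telencephalon. Of 17 members, 14 (82.4%) were higher there and 7 (41.2%) marked it, against 37.3% and 15.4% of the network factors. The median log2 fold change was -0.91. The zinc finger gene egr2a had 3.19, 7.26 and 12.7 cpm in diencephalon, against 30.2, 43.9 and 66.4 cpm in telencephalon (-2.56 ± 0.13, adjusted p = 5e-12 by edgeR). The nuclear receptors nr4a1 copy 2 (-2.48 ± 0.18) and nr4a1 copy 1 (-2.17 ± 0.13) and the AP-1 subunit fosb (-2.13 ± 0.11) followed. The widely used activity markers egr1 (-0.80), fos (-0.57) and npas4a (-0.48) had smaller differences. The paralog egr2b, a hindbrain factor in the embryo, marked diencephalon at 1.53 ± 0.15.

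No listed gene of the eye or of muscle marked a region apart from cnga1, a subunit of the photoreceptor channel, at 1.19 ± 0.12. Of 26 photoreceptor genes, 6 (23.1%) were higher in diencephalon, against 41.2% of all named genes, and 20 did not pass. All 26 were highest in fish 35 in both regions, with a sum of 3126 cpm in diencephalon and 1440 cpm in telencephalon, against medians of 47.9 and 29.1 cpm. The photoreceptor gene rom1b was at 0.01 ± 0.54. Of 11 muscle genes, 4 (36.4%) were higher in diencephalon, also below the 41.2% of named genes, and atp2a1 was at 0.01 ± 0.44. The muscle median was 1.08, and the highest muscle sum was 260 cpm, in the diencephalon of fish 33.

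Many of the largest markers have no name in the tables used here. The largest of these in diencephalon were ENSGACG00000020044 (8.53 ± 0.17, with means of 60.4 cpm in diencephalon and 0.161 cpm in telencephalon) and ENSGACG00000018017 (8.41 ± 0.17, with 294 and 0.897 cpm). In telencephalon they were ENSGACG00000017663 (-7.65 ± 0.19, with means of 0.128 cpm in diencephalon and 25.1 cpm in telencephalon) and ENSGACG00000009609 (-6.43 ± 0.22, with 3.30 and 276 cpm).

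Whether the region difference depended on the time after the flask was tested with 2 region-by-time terms. The growth hormone gene gh1 was the only gene called (0.00571% of 17507, adjusted p = 0.0695 by edgeR), and 860 genes had an unadjusted p under 0.05. It was not called by the likelihood ratio test, nor when fish 2, 3, 8, 10, 12, 15, 27, 30 or 35 was left out, with an edgeR adjusted p of 0.955 without fish 3 and 0.643 without fish 12. The leading markers differed little over the times: eomesa was at -5.86, -6.11 and -5.90 at 30, 60 and 120 minutes, sst3 at -3.06, -3.28 and -2.93, and emx2 at 2.65, 2.60 and 2.70.

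The same region comparison in the 15 challenged males, which share no library with the controls, is given beside them here. All 564 telencephalon markers of the controls, and all 1114 of their diencephalon markers that were tested in both, had the same direction in challenged males. Challenged males had 988 diencephalon markers by the same rule, and the 912 genes shared were 92.3% of these and 81.9% of the control list. They had 507 telencephalon markers, and the 456 shared were 89.9% of these and 80.9% of the control list. Across 17378 genes, which are not independent replicates, the log2 fold changes of the 2 sets had a Pearson correlation of 0.976.

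No gene had a region difference that depended on treatment at an adjusted p under 0.1 (edgeR over 60 libraries, 0% of 17536 genes, smallest adjusted p = 0.874), and 810 genes had an unadjusted p under 0.05. Of 237 listed genes set beside challenged males, 28 had an unadjusted p under 0.05 in the region-by-treatment test, a larger share than over all genes. Their names came from tables that hold mostly genes called for a challenge response in these libraries. No conclusion is drawn from that share. The likelihood ratio test in edgeR also called 0 genes. In challenged males eomesa was at -5.80 ± 0.20, sp9 at -3.40 ± 0.09 and emx2 at 2.57 ± 0.11. Some of the largest diencephalon markers were smaller there, with eng2b at 6.26 ± 0.51, against 8.18 ± 0.20 in controls, pax7b at 5.94 ± 0.54, against 7.84 ± 0.23, and pomca at 3.52 ± 0.51, against 7.61 ± 0.88. None of these 3 differences passed the adjusted test. The genes were picked for large values in controls, so smaller values in other fish can follow from the choice. For eng2b and pax7b the control values also rest on few telencephalon counts.

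**Figure D5:**
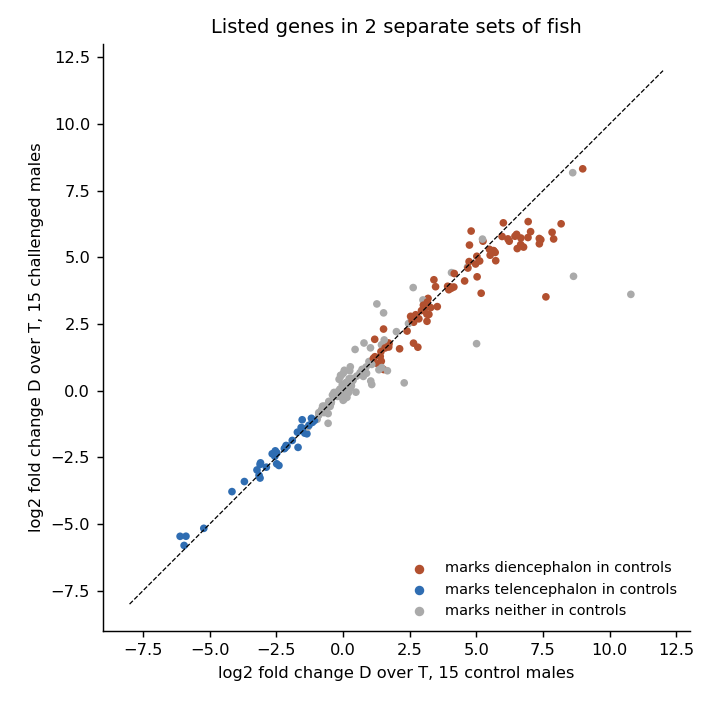
Log2 fold change of diencephalon over telencephalon of the listed genes in 15 control males (x axis) and in 15 challenged males (y axis), with the line of equality dashed and points coloured by the region marked in controls. Most genes lie near the line, and the pituitary genes cga and pomca and some of the largest diencephalon markers lie below it.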

How the data were processed

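Poly-A RNA of each region of each fish was sequenced with a directional kit. The authors mapped the reads with TopHat2 (2.0.8) to a repeat-masked stickleback assembly, assigned them to the genes of Ensembl release 75 with HTSeq (0.6.1), left out reads that fell in several genes and deposited raw counts. Whether the counting used strand is not given in the sources used here, so antisense or overlapping neighbours may share reads. A deposited table of normalized values of the same libraries was not used.

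The 30 control libraries were fitted in R (4.3.3) with edgeR (4.0.16): a filter of 1 cpm or more in 2 or more libraries, TMM normalization, fish as a block and Benjamini-Hochberg adjustment over all genes. Standard errors are the absolute log2 fold change over the square root of F, and are too small for genes with few counts in 1 region. A fish was taken as higher or lower from log2 cpm with a prior count of 2. Regions of a fish were paired by the fish number in the labels. The deviations of same-numbered libraries correlated at 0.584 on average (lowest 0.215, 15 of 15 above 0.1), against -0.0408 for different fish. No 2 libraries of a region were alike within sampling noise. Alternatives were DESeq2 (1.42.0), other normalization, filters, thresholds and subsets of fish. On simulated data, 198 of 200 genes changed between the regions were called, and 19 unchanged genes of 17382 were. The changed genes had a mean above 1 cpm and differed 2-fold. Most real differences that passed were smaller and far more genes differed, so this recovery does not cover them.

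Gene names for 1791 of 17536 genes, and positions, came from the study's supplementary tables, which hold mostly genes that responded to the challenge and transcription factors. A table for another assembly matched 0 identifiers. Paralogs that share a name are numbered as copies, and near-identical copies may share reads. The 4 list memberships without a row in the count table were not analysed here. The members and lists were chosen with earlier results of these data known. Genes are named by a rule: up to 4 markers per list and direction by size, the 12 largest named markers per region with at least 1 cpm, avp, oxt, pomca, cga and prl, and per list the member nearest to no difference or against its list. Other list members are named for context and were chosen after their values were seen. The result of 1 gene that the rule names is not reported here.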

Additional observations from a re-analysis of the deposited data

Results flagged for a closer look

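The region difference of gh1, the pituitary growth hormone gene, differed between the times by the test of region-by-time terms (edgeR, adjusted p = 0.0695). The log2 fold change of diencephalon over telencephalon was 12.64 ± 0.74 at 30 minutes, 2.43 ± 0.60 at 60 minutes and 7.84 ± 0.66 at 120 minutes. The values at 30 and 120 minutes rest on few fish, so these errors do not measure precision. The diencephalon held 668 cpm in fish 12, killed at 30 minutes, and 136 cpm in fish 32, killed at 120 minutes, against a median of 0.113 cpm over the 15 fish, while the highest telencephalon level was 0.918 cpm. Leaving out 1 fish gave adjusted p-values of 0.0262 to 0.955 by edgeR, and gh1 was no longer called without fish 2, 3, 8, 10, 12, 15, 27, 30 or 35. Without fish 12 the adjusted p was 0.643, and without fish 10, 12 and 32 it was 0.949. Without the fish block it was 1, and by the likelihood ratio test, with an unadjusted p of 0.0305 in edgeR, gh1 did not pass either.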

How the results depend on the processing

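Among 81 named genes, 2460 of 2494 values under the alternatives kept their call, either past the threshold in the same direction or not past it. Most of these genes were named as large markers in the same fish, so their calls had little room to change. The sign turned in 39 of the values, all of 6 genes with small differences (atp2a1, rom1b, csf1ra, PCP2, rxfp3.2a and glulc). Among them atp2a1 passed at -1.22 in the fish of index pair 3, and glulc, called with all fish, was at 0.076 at 120 minutes. With fewer fish, fewer genes passed: in index pairs 2, 3 and 4 alone, 4055, 3682 and 2887 genes were higher in diencephalon and 3711, 3166 and 2653 in telencephalon, and at 60 minutes alone 4308 were higher in telencephalon. A minimum of 4-fold left 415 diencephalon and 160 telencephalon markers. Without 1 fish each, 6225 to 6385 genes were higher in diencephalon and 6479 to 6892 in telencephalon, with 1102 to 1171 and 551 to 599 markers. In 2 alternatives chosen after seeing the data there were 1107 and 555 markers without fish 3 and 33, and 1214 and 605 without fish 5, 10, 12 and 15. The set of fish 10, 12 and 32 also depends on the data, as these fish held the highest pituitary sums in diencephalon. A marker must lie on 1 side in all fish, so leaving fish out relaxes the rule. Without the replicate block, 5432 and 5565 genes passed and 1105 and 564 marked a region. Genes whose difference depended on the time numbered 0 without the block, 0 with a filter of 1 cpm in 15 libraries, 0 without fish 10, 12 and 32, and 0 to 2 without 1 fish. By the likelihood ratio test there were 10, and gh1 was not among them. The medians of 8 of the 17 lists moved by more than the spread between fish in 16 values. That of the pituitary list, 6.19, was 1.79 by DESeq2, 2.44 and 2.18 in index pairs 2 and 3, and also lower by the likelihood ratio test. That of the muscle list was -1.22 in index pair 3, against 1.08, and the hypothalamic median was 4.41 in index pair 2, against 2.88. The transmitter median was 0.38 with 1 cpm in 15 libraries and 0.59 in index pair 4, against 0.95. The others were the medians of isthmus and cerebellum (3.95 to 4.15, against 3.54), myelin (1.36, against 1.05), radial glia (0.88 and 0.90, against 0.70) and steroid genes (-0.30, against -0.46). The causes were not tested. Depth limits genes with a few telencephalon counts, whose fold changes are the least certain in size.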
